A study of Drosophila melanogaster with 12 samples.

Results

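The fast-evolving miRNA clusters of Drosophila melanogaster described here are the hairpins mir-959 to mir-964, mir-972 to mir-979 with mir-2499, mir-982 to mir-984, and mir-2498. They were chosen by hairpin name, as the clusters known for rapid sequence change and, for most of them, for expression in the testis. The miRNA table held 35 rows of these hairpins among 408 rows, at 20 of 238 hairpins. The 2 arms of mir-983 were listed at both of its copies with the same values, so each was counted 1 time, which left 33 mature miRNAs of 403. Their reads cannot be assigned to mir-983-1 or mir-983-2. The hairpin mir-303 was not analysed here, as no row carried its name.

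The samples were small RNAs recovered with AGO1 from heads of Canton-S flies, a wild-type strain. Flies were kept at 1 of 3 temperatures, of which 18°C was the lowest, 25°C the middle and 29°C the highest, and heads were taken at ZT3, ZT9, ZT15 and ZT21, with 1 library for each temperature and time point. ZT, the Zeitgeber time, counts hours from lights on, so ZT3 and ZT9 were taken in the light and ZT15 and ZT21 in the dark. The study used these 12 libraries to ask whether miRNA regulation of the clock gene timeless depends on temperature. Age and sex were not given in the labels, and all groups shared strain, tissue and antibody. The 4 time points of a temperature stood in for its replicates (n = 4), and the labels do not say whether they came from separate cultures, so a p-value here measures only the spread between these libraries.

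A miRNA hairpin is cut by Drosha and Dicer into a short duplex, and 1 of its arms, 5p or 3p, is usually kept by the Argonaute protein, AGO1 in the case of most fly miRNAs. Hairpins that lie close together on 1 strand are often cut from a shared primary transcript, so that their levels tend to move together unless the single hairpins are processed or kept differently. Clusters that are mostly expressed in the testis arose recently and change fast between Drosophila species. The cluster mir-959 to mir-964 is also known from the adult fat body of the head, where its primary transcript cycles with the clock and with feeding time.

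Library depth ranged from 4423511 reads at 29°C and ZT21 to 16840372 reads at 25°C and ZT15. The deposited value of a miRNA is its read number over the library's size factor, and 3 reads corresponded to values from 1.97 to 7.65. Adjusted p-values are from limma on log2(value + 1) with Benjamini-Hochberg adjustment over all miRNAs tested, and a miRNA was called between temperatures where this was under 0.05 and its log2 fold change was under -1 or over 1. All 8 miRNAs checked as markers of head tissue and muscle were found in every library, with the lowest at miR-124-3p (57 to 353 reads), a miRNA of neurons, and the highest at miR-1-3p (101876 to 617764 reads), a miRNA of muscle. Testes were not measured, so the label of testis bias could not be set against these data. In bulk heads, fewer cells that make a miRNA and less of it per cell cannot be told apart.

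In the BDGP6.54 annotation the 6 hairpins mir-959 to mir-964 lay within 1 stretch of chromosome arm 2L (start 5640940, end 5642201, plus strand), inside an intron of DIP-theta and on the strand opposite to it. The hairpins mir-972 to mir-977 and mir-2499 lay on the plus strand of chromosome X (start 19551152, end 19559120), between CG32532 and Grip84. Next to them, mir-978 and mir-979 (start 19561236, end 19561931) lay opposite a 3′ UTR exon of Grip84. The hairpins mir-983-1, mir-983-2 and mir-984 lay on the minus strand of X (start 4368309, end 4368735) in an intron of CG3626, opposite to that gene, and mir-982 (start 4365806, end 4365898) lay between CG3626 and norpA. Each of the 3 clusters thus had its hairpins on a single strand.

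These miRNAs were rare in AGO1 of heads. All 33 together gave 4647 reads over the 12 libraries, which was 34.4 RPM (reads per 1000000 miRNA reads), with 25.19 to 43.7 RPM in single libraries. The most abundant, miR-983-5p, ranked 156 of 403 by mean value, and the median rank was 274. A mean of at least 10 reads per library was reached by 6 of them. These were miR-983-5p (149 reads), miR-982-5p (58.7 reads), miR-984-5p (34.7 reads), miR-964-5p (33.2 reads), miR-963-3p (12.3 reads) and miR-975-5p (10.5 reads). A further 10 had means from 5 to 10 reads, 7 had means from 1 to 5 reads and 10 stayed under 1 read. The number with at least 3 reads in all 12 libraries was 9 of 33 (27.3%), against 55.3% of all 403 rows. With a floor of 1 read it was 15, and with a floor of 10 reads it was 3. There were 7 of the 33 that reached 3 reads in no library. The 4 arms miR-962-3p, miR-963-5p, miR-2499-3p and miR-2499-5p had 1 read each in a single library.

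**Figure D1:**
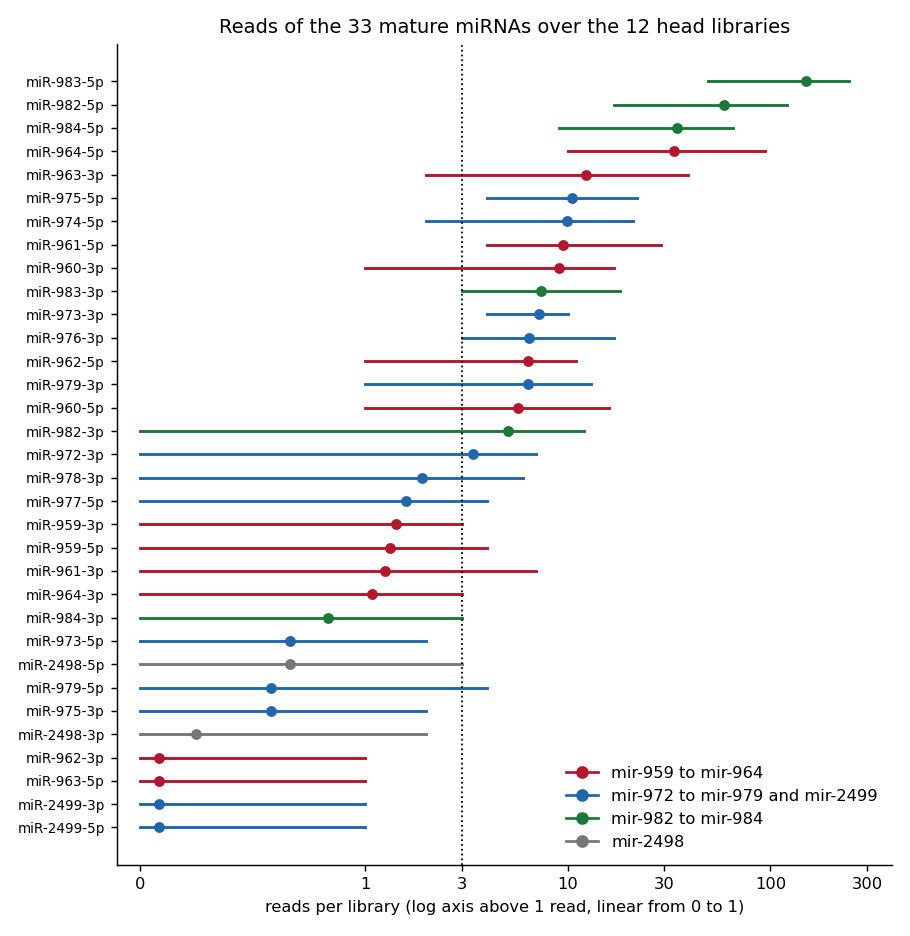
Reads per library of the 33 mature miRNAs (log axis above 1 read, linear below), where the point is the mean and the line runs from the lowest to the highest of the 12 libraries. The dotted line marks 3 reads, and 9 miRNAs lie at or to the right of it along their whole line.

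By cluster, mir-982 to mir-984 gave 3068 reads, mir-959 to mir-964 gave 976, and mir-972 to mir-979 with mir-2499 gave 592. The hairpin mir-2498 gave 11 reads. It lies among mir-310 to mir-313, mir-991 and mir-992, a group with known roles in the male germ line, of which 9 rows were listed, 3 had enough reads to be tested and none was called between temperatures. Most hairpins had 1 dominant arm. The 5p arm held 1788 of 1877 reads at mir-983 (95.3%, exact 95% interval 94.2 to 96.2), 704 of 765 at mir-982 (92.0%, 89.9 to 93.8), 416 of 426 at mir-984 and 399 of 412 at mir-964. The 3p arm held 148 of 149 reads at mir-963. Reads were shared more evenly at mir-960, where 3p had 108 of 176 reads (61.4%, 53.7 to 68.6), and at mir-959, where it had 17 of 33. These intervals cover counting error only. The hairpins mir-972, mir-974, mir-976, mir-977 and mir-978 were listed with 1 arm each. No hairpin of the clusters had a mean of at least 10 reads per library in both arms, so none entered the arm ratio test between 18°C and 29°C, which called 50 of 89 other hairpins (56.2%). With a minimum mean of 3 reads, mir-960, mir-982 and mir-983 entered and 0 of 3 was called by limma, against 45.3% of all 106 hairpins. The ratio of mir-983 differed by 0.71 ± 0.32 (log2 of 5p over 3p, 18°C minus 29°C, SE, adjusted p = 0.0887).

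Of the 33 miRNAs, 8 had enough reads for the test by temperature, and among these 8 the miRNAs called came from the hairpins mir-959 to mir-964. Between 18°C and 29°C 2 of them were called, miR-963-3p and miR-964-5p of the mir-959 to mir-964 cluster, both lower at 18°C. Over all 244 miRNAs tested, 16.0% were called, and 6.15% were called as lower at 18°C. The arm miR-964-5p had enough reads for the test in all 12 libraries. The arm miR-963-3p had enough in all 4 libraries at 29°C but in only 1 each at 18°C and 25°C, so it entered through the group where it was high and its call cannot be read against these shares. Between 29°C and 25°C 1 was called, miR-964-5p, higher at 29°C, where 3.28% of all miRNAs were called and 2.05% were called as higher. Between 18°C and 25°C limma called 0 of the 8, where 4.1% of all were called, and none of the 8 had an unadjusted p under 0.05. Neither edgeR nor DESeq2 on the recovered reads called any of the 8 between 18°C and 25°C.

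The arm miR-964-5p is the main product of the last hairpin of its cluster. At 18°C it had values of 16.1, 16.7, 17.0 and 23.4 at ZT3, ZT9, ZT15 and ZT21. At 25°C it had 23.8, 10.2, 31.5 and 23.5, and at 29°C it had 72.7, 57.8, 48.0 and 43.4. All 4 libraries at 29°C lay above all 8 others, while those at 18°C and 25°C overlapped. Its values averaged 18.29 ± 3.45 at 18°C and 22.3 ± 8.84 at 25°C, and 55.5 ± 13.0 at 29°C (SD, n = 4 each). The log2 fold change was -1.54 ± 0.31 at 18°C against 29°C (SE, adjusted p = 0.00129) and 1.35 ± 0.31 at 29°C against 25°C (adjusted p = 0.0113). Against 25°C, the 18°C libraries differed by -0.19 ± 0.31 (adjusted p = 0.720). The calls against 29°C held in all alternative fits that tested this miRNA, 23 at 18°C against 29°C and 24 at 29°C against 25°C. The log2 fold changes ran from -1.66 to -1.20 at 18°C against 29°C and from 1.03 to 1.55 at 29°C against 25°C. These fits include the main fit judged by adjusted p alone, where a call cannot be lost, and a fit that only added back repeated rows. Libraries without overlap were seen between 18°C and 29°C for 38.9% of all miRNAs tested and between 29°C and 25°C for 16.8%.

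The arm miR-963-3p, from the neighbouring hairpin, had fewer reads. At 18°C its values were 4.46, 2.78, 11.05 and 7.81, at 25°C they were 2.16, 10.2, 8.53 and 6.08, and at 29°C they were 30.2, 21.2, 23.5 and 10.2. The 29°C libraries at ZT3, ZT9 and ZT15 lay above all others. The 29°C library at ZT21, the shallowest, held 4 reads of it and overlapped with those at 18°C and 25°C. The log2 fold change was -1.61 ± 0.49 at 18°C against 29°C (SE, adjusted p = 0.0173) and 1.58 ± 0.49 at 29°C against 25°C (adjusted p = 0.0522). The call between 18°C and 29°C was lost without the 18°C ZT9 library (adjusted p = 0.0539), without the 29°C ZT3 library (adjusted p = 0.0590), and with a pseudocount of 10 (log2 fold change -0.90). Between 29°C and 25°C it was gained in edgeR (adjusted p = 0.0245), in DESeq2 (adjusted p = 0.0411) and when the library at 18°C and ZT9 (adjusted p = 0.0400), at 25°C and ZT9 (adjusted p = 0.0485) or at 29°C and ZT21 (adjusted p = 0.0185) was left out. It was also gained with ZT as a replicate block and only the libraries at 29°C and 25°C in the fit (adjusted p = 0.0417), but not with the block over all 12 libraries (adjusted p = 0.0815).

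The arm miR-960-3p also entered the test through the 29°C libraries, as it had enough reads in all 4 libraries at 29°C, in 1 at 25°C and in none at 18°C. It had values of 5.36, 8.34, 8.50 and 6.39 at 18°C, 5.41, 1.02, 10.5 and 6.84 at 25°C and 10.1, 9.87, 15.4 and 23.0 at 29°C. The libraries at 18°C and 29°C did not overlap, as was so for 38.9% of all miRNAs tested. The arm was not called, with a log2 fold change of -0.88 ± 0.49 at 18°C against 29°C (SE, adjusted p = 0.170). At 29°C against 25°C it was 1.33 ± 0.49 (adjusted p = 0.0894).

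A further fit kept all rows without a filter. At 18°C against 29°C it gave negative log2 fold changes for 10 of the 12 listed members of the cluster mir-959 to mir-964. Over all 403 rows 183 were negative. The median was -0.82 over the 12, against 0.02 over all 403 rows. Of the 10 negative members, miR-962-3p and miR-963-5p had only 1 read each, in a 29°C library, which alone set their sign. The 2 positive ones, miR-959-5p (0.96) and miR-964-3p (0.35), were not called. At 29°C against 25°C 11 were positive, again with these arms of 1 read among them, and 1 was negative. Over all 403 rows 179 were positive. The median was 0.75 over the 12, against -0.01 over all rows. At 18°C against 25°C 4 were positive and 6 negative, with a median of -0.02. That fit called 54 of all 403 rows between 18°C and 29°C, among them 3 of the 12 members of this cluster. In that fit miR-961-5p was also called between 18°C and 29°C (log2 fold change -1.21 ± 0.40, adjusted p = 0.0342), with values of 4.46, 5.56, 6.80 and 4.26 at 18°C and of 22.4, 21.2, 6.34 and 10.2 at 29°C. Its ranges overlapped through the 29°C ZT15 library. DESeq2 called it as well (adjusted p = 0.0365). The arms miR-960-5p and miR-962-5p were not called. Means of miR-960-5p were 2.85 ± 1.06 at 18°C and 4.39 ± 2.47 at 25°C, and 8.24 ± 4.17 at 29°C, and those of miR-962-5p were 5.72 ± 1.77 at 18°C and 3.68 ± 2.08 at 25°C, and 11.7 ± 7.24 at 29°C (SD, n = 4 each).

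**Figure D2:**
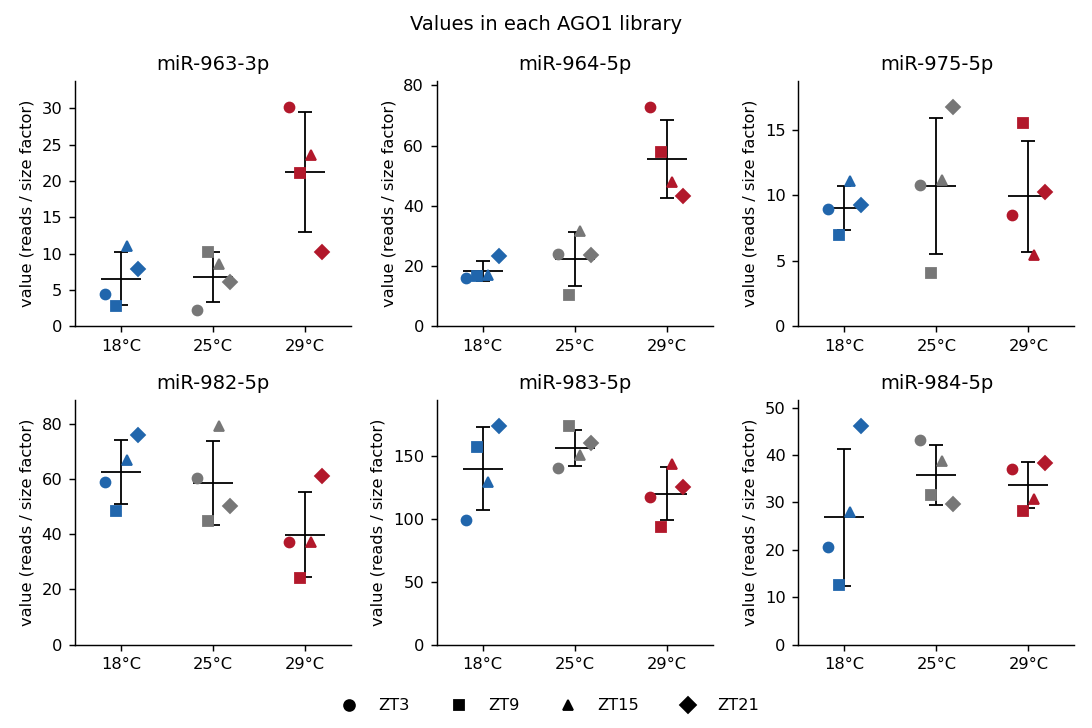
Values (reads divided by the size factor of the library) of the 6 miRNAs with a mean of at least 10 reads, for each library by temperature, with symbols for ZT3, ZT9, ZT15 and ZT21. Bars show the mean and SD of 4 libraries. For miR-964-5p the 29°C libraries, from 43.4 to 72.7, lie above all others, while for miR-975-5p, miR-983-5p and miR-984-5p all 3 temperatures overlap.

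The cluster mir-972 to mir-979 had 2 arms that could be tested by temperature, miR-974-5p and miR-975-5p, and neither was called in any comparison of temperatures. Values of miR-975-5p were 8.93, 6.95, 11.05 and 9.23 at 18°C, 10.8, 4.08, 11.2 and 16.7 at 25°C and 8.51, 15.5, 5.43 and 10.2 at 29°C. The range at 18°C lay within those at 25°C and 29°C (adjusted p = 0.947 at 18°C against 29°C). Values of miR-974-5p averaged 7.12 ± 2.13 at 18°C and 11.6 ± 3.11 at 25°C, and 7.44 ± 4.18 at 29°C. Its adjusted p was 0.947 at 18°C against 29°C and 0.373 at 29°C against 25°C. Without a filter, where 54 of all 403 rows were called, miR-978-3p was called between 18°C and 29°C (log2 fold change -1.41 ± 0.49, adjusted p = 0.0433). This rested on 0 or 1 read per library at 18°C and 2 or 3 at 29°C, and DESeq2 did not call it (adjusted p = 0.181). For its neighbour miR-979-3p the values were 0.893, 2.78, 5.95 and 3.55 at 18°C and 10.1, 9.87, 7.24 and 7.65 at 29°C. These did not overlap, as was so for 38.9% of the 244 miRNAs tested, and the arm was not called (adjusted p = 0.0807 without a filter). It had too few reads to enter the test by temperature, and the share among rows this rare was not computed. For miR-973-3p there were 4 to 10 reads in every library, with SDs of its values of 1.38 at 18°C and 1.61 at 25°C, and 3.63 at 29°C.

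The cluster mir-982 to mir-984 held the most abundant members, and none was called between temperatures. The arm miR-983-5p had values of 99.1, 157, 129 and 174 at 18°C, 141, 174, 151 and 160 at 25°C and 118, 93.1, 144 and 125 at 29°C. All 3 ranges overlapped. Its log2 fold change was 0.21 ± 0.19 at 18°C against 29°C (SE, adjusted p = 0.427) and -0.39 ± 0.19 at 29°C against 25°C (adjusted p = 0.231).

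The arm miR-982-5p had values of 58.9, 48.6, 67.1 and 76.0 at 18°C, 60.5, 44.9, 79.4 and 50.1 at 25°C and 37.1, 24.0, 37.1 and 61.2 at 29°C. At 29°C the ZT3, ZT9 and ZT15 libraries lay below all others, and the ZT21 library lay within the range of both other temperatures. The log2 fold change at 18°C against 29°C was 0.70 ± 0.28 (SE, adjusted p = 0.0597), under the limit of 1. It was positive and under this limit in all 23 alternative fits, with adjusted p-values from 0.00767 to 0.1802. Among these, the fit judged by adjusted p alone repeats the main fit. The sign was thus opposite to that of miR-964-5p in the same libraries. At 29°C against 25°C it was -0.59 ± 0.28 (adjusted p = 0.208).

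The arm miR-984-5p had values of 20.5, 12.5, 28.0 and 46.2 at 18°C, 43.2, 31.7, 38.7 and 29.6 at 25°C and 37.1, 28.2, 30.8 and 38.3 at 29°C. The 18°C libraries spread the most and held both its lowest and its highest value. The log2 fold change at 18°C against 29°C was -0.45 ± 0.32 (SE, adjusted p = 0.289).

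**Figure D3:**
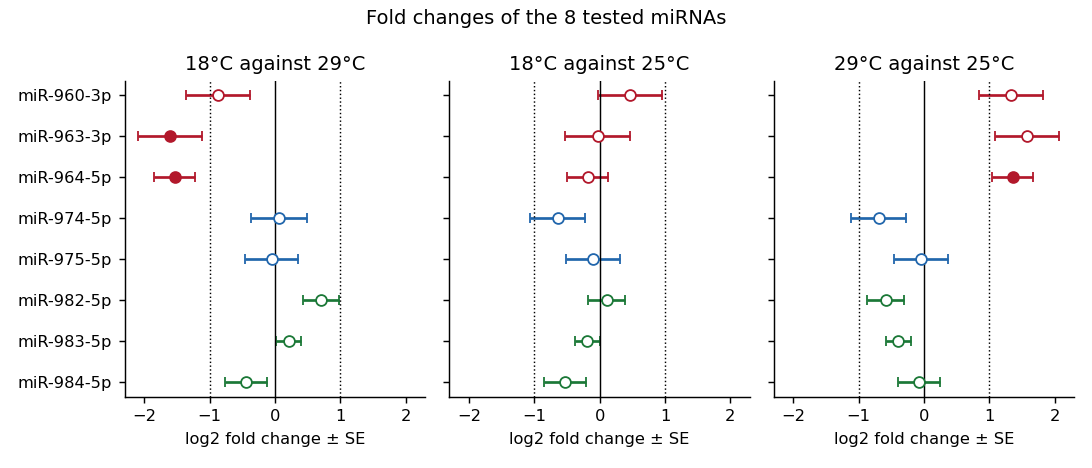
Log2 fold changes with SE of the 8 miRNAs tested by temperature, in 3 comparisons. Colours mark mir-959 to mir-964 (red), mir-972 to mir-979 (blue) and mir-982 to mir-984 (green), filled points were called, and dotted lines mark the limit of 1. The filled points are miR-963-3p (-1.61), which entered the test through its 29°C libraries, and miR-964-5p (-1.54) at 18°C against 29°C, and miR-964-5p (1.35) at 29°C against 25°C.

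Summed over its 12 arms, mir-959 to mir-964 had values of 50.0 ± 7.56 at 18°C and 54.4 ± 19.5 at 25°C, and 134 ± 25.0 at 29°C (SD, n = 4 each). The lowest library at 29°C, with 109.5, lay above the highest at the other temperatures, with 80.0 at 25°C and ZT15. The sum of mir-972 to mir-979 was 41.9 ± 3.43 at 18°C and 50.7 ± 13.0 at 25°C, and 46.4 ± 2.11 at 29°C, and that of mir-982 to mir-984 was 240 ± 53.5 at 18°C and 262 ± 13.8 at 25°C, and 208 ± 38.3 at 29°C. Both overlapped across temperatures. A ratio of reads within a library does not depend on its size factor. The reads of mir-959 to mir-964 over those of mir-982 to mir-984 were 0.211 (0.176 to 0.235) at 18°C and 0.206 (0.125 to 0.284) at 25°C, and 0.670 (0.480 to 0.917) at 29°C, as mean and range. Over those of mir-972 to mir-979 they were 1.19 (1.05 to 1.35) at 18°C and 1.07 (0.838 to 1.42) at 25°C, and 2.89 (2.42 to 3.77) at 29°C. In both ratios the 29°C libraries stood above all others without overlap. At 29°C miR-964-5p gave 205 and miR-963-3p gave 84 of the 482 reads of mir-959 to mir-964. The sum and ratios of this cluster thus rest largely on these arms and are not separate support for them. No test was made of these sums, since the members, though chosen by hairpin name, were chosen with earlier results of these data known.

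By time point, the highest library for mir-959 to mir-964 differed between temperatures. The sum was 3.75, 4.73, 5.03 and 5.84 RPM at ZT3, ZT9, ZT15 and ZT21 at 18°C, with the highest at ZT21. At 25°C it was 4.60, 3.05, 7.24 and 5.36, with the highest at ZT15 (exact 95% interval 6.02 to 8.65) and the lowest at ZT9 (2.09 to 4.31). At 29°C it was 14.9, 12.9, 9.80 and 10.6, with the highest at ZT3 (13.0 to 17.0) and the lowest at ZT15 (8.13 to 11.7). With 1 library per temperature and time point these orders have no replicate, and the intervals cover counting error only. The sum of mir-982 to mir-984 was highest at 18°C and ZT21, at 33.1 RPM (30.1 to 36.3), and the other 18°C libraries had 17.8 to 21.4.

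**Figure D4:**
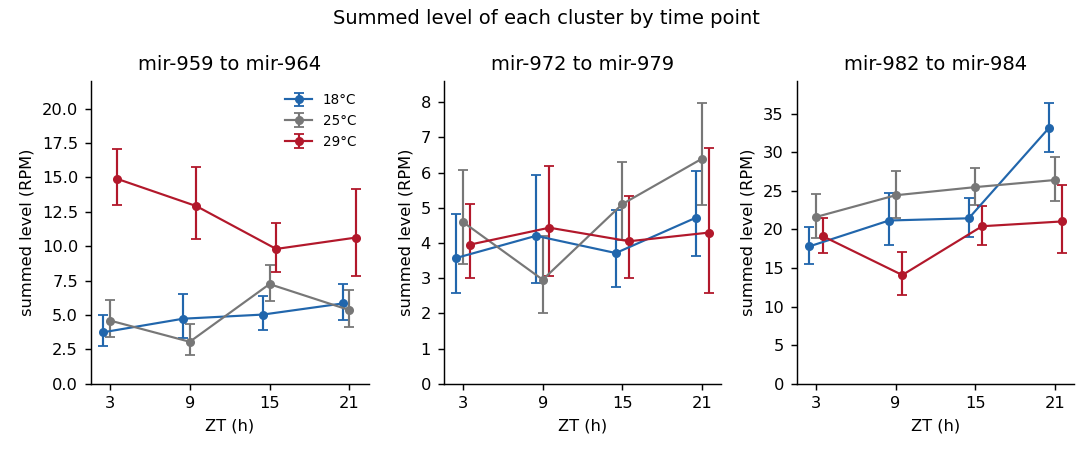
Summed level of each cluster (RPM) by time point, with 1 library per point and exact 95% binomial intervals and a line for each temperature. For mir-959 to mir-964 the 29°C points, from 9.80 to 14.9, lie above all points at 18°C and 25°C, which reach 7.24, while the other 2 clusters overlap between temperatures.

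Tested over the 3 temperatures, no member was called for time of day. Of 10 miRNAs with enough reads for this test, limma called 0 (0% of all 252 tested), with adjusted p-values from 0.863 to 0.919 and 0 at an unadjusted p under 0.05, against 4.76% of all. Between dark and light limma called 0 of 7 members (0% of all 235), and 1 had an unadjusted p under 0.05, against 2.13% of all. This was miR-982-5p, with a mean of 61.8 ± 16.0 in the dark and 45.7 ± 13.8 in the light (SD, n = 6 each, log2 fold change 0.45 ± 0.20, adjusted p = 0.995). Its log2 difference was 0.41 within 18°C, 0.27 within 25°C and 0.66 within 29°C. These are parts of the same libraries that gave the unadjusted p, so they add no separate support. For a change of the dark and light difference with temperature limma called 0 of 8 members (0% of all 244), with adjusted p-values from 0.702 to 0.869 and 0 at an unadjusted p under 0.05, against 3.69% of all. For the same 3 tests, edgeR and DESeq2 on the recovered reads called 0 members.

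Co-variation within clusters was read from the 4 pairs of arms with a mean of at least 10 reads, over 12 libraries. Pearson's r of log2(value + 1) was 0.67 for miR-963-3p with miR-964-5p (permutation p = 0.0173, adjusted p = 0.0691 over 4 pairs; Spearman's rho 0.56, permutation p = 0.0629). Without the 2 libraries farthest from the median of miR-963-3p it was 0.64. The arm miR-963-3p reached the mean of 10 reads through its 29°C libraries, with 84 reads there against 31 at 18°C and 33 at 25°C. Its r over all 12 libraries therefore cannot be read apart from the temperature difference. The 29°C libraries stood apart for miR-964-5p, and after each temperature's mean was subtracted r was 0.03 (exact permutation p = 0.933, permuting within temperatures), with 0.39 within 18°C, -0.38 within 25°C and 0.80 within 29°C, on 4 libraries each. A relation within temperatures was not detectable for this pair at this depth.

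For miR-982-5p with miR-984-5p it was the other way round. Over all libraries r was 0.24 (permutation p = 0.439, adjusted p = 0.585) and rho was 0.43 (permutation p = 0.170), and 0.31 without the 2 libraries farthest from the median of miR-982-5p. After subtraction of each temperature's mean r was 0.62 (exact permutation p = 0.00195, adjusted p = 0.00781 over 4 pairs), and it was 0.99 within 18°C, 0.69 within 25°C and 0.84 within 29°C, with 4 libraries each. Among the 35 pairs of arms with a mean of at least 5 reads the adjusted p of this pair was 0.0684, over the threshold. The arm miR-983-5p correlated with miR-982-5p at 0.45 (0.24 after subtraction) and with miR-984-5p at 0.16 (0.18 after subtraction), with adjusted permutation p-values of 0.287 and 0.622. The median r over 26796 pairs of all 232 miRNAs with enough reads was -0.01, with quartiles of -0.37 and 0.36. The points share library depth, and arms of few reads carry much counting error. The variance of the reads of the 8 tested members within temperatures was a median of 2.14 times what counting alone gives. Over all miRNAs tested it was 16.6 times, and for the members under 10 reads it was 1.03 times. This ratio rises with read number, so it does not show that the members vary less than other miRNAs.

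**Figure D5:**
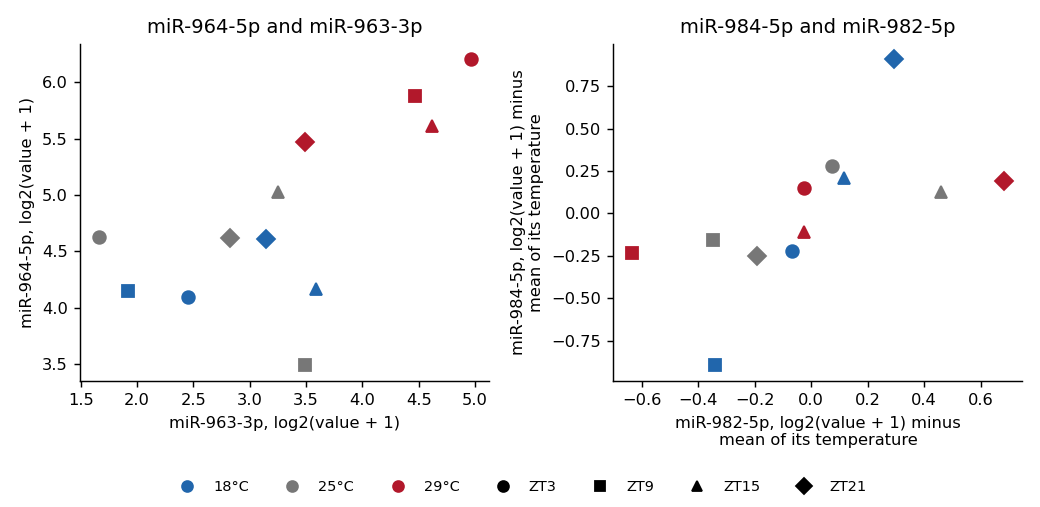
Log2(value + 1) of miR-964-5p against miR-963-3p in the 12 libraries (left), and of miR-984-5p against miR-982-5p after each temperature's mean was subtracted (right), with colours for temperature and symbols for time point. On the left (r = 0.67) the 29°C libraries lie apart at the top. On the right (r = 0.62) the points rise together within each temperature.

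With a mean of 5 reads as the minimum, which the reads at 29°C help to reach, the 15 pairs of mir-959 to mir-964 all had positive r, with a median of 0.63, and 4 of them passed an adjusted p of 0.05 over 35 pairs. These 15 pairs come from 6 arms and are not independent, and the share of all miRNA pairs past this threshold was not computed. The r over all 12 libraries cannot be read apart from the temperature difference. After subtraction of the temperature means the median was 0.33, with 11 of 15 positive and none past the threshold. The 10 pairs of mir-972 to mir-979 had a median r of 0.02 and those of mir-982 to mir-984 a median of 0.31, and after subtraction the medians were 0.02 and 0.36.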

How the data were processed

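Small RNAs bound to AGO1 were sequenced from fly heads in 12 libraries. The authors assigned reads to mature miRNAs of miRBase 21 with miRExpress. The aligner settings and a genome build were not given in the sources used here. The deposited values are a signal, reads divided by 1 size factor per library. Whole reads were recovered for 100% of 4896 values (within 0.01 read), and 5 repeated rows were dropped.

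The study's methods named DESeq2 and the 2 thresholds used here, 0.05 for the adjusted p and 1 for the size of the log2 fold change. Because a signal is not a count, limma was the main test (version 3.58.1, R 4.3.3; lmFit, eBayes with trend and robust) on log2(value + 1), after filterByExpr on recovered reads grouped by temperature (244 miRNAs), time point (252) or light and dark (235). A size factor scales all miRNAs of a library alike, and the pseudocount of 1 understates fold changes of rare miRNAs. On recovered reads edgeR (4.0.16) called 38, 12 and 9 miRNAs at 18°C against 29°C, 18°C against 25°C and 29°C against 25°C, DESeq2 (1.42.0) called 39, 10 and 9, and limma 39, 10 and 8.

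One model of 3 temperatures gave the 3 comparisons. Time of day (3 coefficients) and dark against light had temperature as covariate, and the change of the dark and light difference was 2 interaction coefficients. Arm ratios were log2((5p reads + 0.5)/(3p reads + 0.5)). Correlations used 100000 permutations, or all 13824 within temperatures. Arms with a mean of at least 10 reads are given by library, the others by range, count or mean, except arms called or without overlap, which were chosen after their values were seen. Head and muscle markers were mir-124, mir-7, mir-210, mir-263a, mir-263b, mir-1000, mir-1 and mir-133. Members and lists were chosen with earlier results of these data known. Scripts were tested on simulated data. Positions are from the Ensembl annotation of BDGP6.54 (release 115), as the table gives names only. Depth was 4423511 to 16840372 reads, and reads were not collapsed to molecules, so intervals and floors cover counting error only. Deviations from the temperature means were correlated between libraries with the same ZT. They correlated at 0.23 to 0.44 in the 4 pairs of 29°C and 25°C, all positive. In those of 18°C and 25°C it was -0.46 to -0.20, all negative, and in those of 18°C and 29°C it was -0.29 to 0.06. ZT was thus taken to pair libraries only between 29°C and 25°C. The main fit did not use this pairing, so its p-values at 29°C against 25°C are unpaired. Alternatives were other pseudocounts, filters, scalings and tools, ZT as a replicate block, and each library left out.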

Additional observations from a re-analysis of the deposited data

Results flagged for a closer look

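The value of miR-964-5p at 18°C and ZT21, 23.4, stood apart from the other 18°C libraries, which had 16.1 to 17.0. Its gap to the nearest was 0.874 of the range of the 4 libraries, over Dixon's critical value at the 95% level. Of 27 groups of 4 libraries examined this was the 1 that passed, where chance alone gives about 1.35. The value was under all 29°C values of this miRNA.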

How the results depend on the processing

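The number of members called at 18°C against 29°C, 2 as reported, was 1 with a pseudocount of 10 and 4 without a filter. DESeq2 on the recovered reads called miR-961-5p besides the 2 reported (adjusted p = 0.0365). Without a filter 54 of all 403 rows were called. The number of members called was 0 with a mean of at least 100 reads (1 member left to test), and 1 to 2 when each library was left out. At 29°C against 25°C it was 1, and 2 in edgeR, in DESeq2 and with ZT as a replicate block and only these temperatures in the fit, 0 with at least 100 reads, and 1 to 2 with each library left out. At 18°C against 25°C and in the tests of time of day, of dark against light and of their difference by temperature it was 0 in every alternative that was run. The log2 fold change of miR-964-5p at 18°C against 25°C ran from -0.50 to 0.00915 with each library left out, and was positive only without the 25°C ZT15 library. Calls over all miRNAs at an adjusted p alone were 97, 48 and 29, against 39, 10 and 8 with the fold limit. Total read scaling moved the median log2 fold change at 18°C against 29°C to 0.13, against 0.03. No member that passed the filter and has a printed log2 fold change changed sign under TMM or total read scaling. Members outside the filter were not fitted under these scalings. Detection in all 12 libraries (9 members) was 15 with a floor of 1 read, 3 with 10 reads and 9 to 11 with a library left out. Pairs called for co-variation (0 of 4) were 1 with temperature means subtracted, 1 with a pseudocount of 10, 4 of 35 with at least 5 reads and 0 to 1 with a library left out (1 without the 25°C ZT3 or ZT9 library). Where not stated, the cause was not tested.

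Libraries with the same ZT share time of day and light phase, and the labels give no other pairing. With ZT as a replicate block over all 12 libraries the members called stayed at 2, 0 and 1 (18°C against 29°C, 18°C against 25°C and 29°C against 25°C). The block within 29°C and 25°C alone, which made miR-963-3p a call, was chosen after seeing the data. Arm ratios with 5 reads added, with 30 reads as the minimum, with the block or with a library left out gave no value, as no hairpin of the clusters qualified. The variance of members under 10 reads was a median of 1.03 times what counting alone gives, so depth limits what can be read from them.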

Other observations

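The arms of mir-959, the first hairpin of its cluster, had too few reads to say whether their division changed with temperature. The 3p arm had 3 reads in all at 18°C, 5 at 25°C and 9 at 29°C. The 5p arm had 8, 5 and 3. The 3p arm held a mean of 25.8% ± 21.1 of the hairpin's reads at 18°C and 50.0% ± 45.6 at 25°C, and 85.0% ± 30.0 at 29°C (SD over libraries). Each library had at most 4 reads of either arm, so this was not tested. The 3p arm had values from 0 to 1.39 at 18°C and from 1.55 to 7.65 at 29°C, and the 5p arm from 0.893 to 2.84 at 18°C and from 0 to 2.32 at 29°C. The 3p ranges, from 0 or 1 read and from 2 or 3 reads, did not overlap. This was so for 38.9% of the 244 miRNAs tested, and the share among rows this rare was not computed.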
